A study of Homo sapiens with 4 samples.

Results

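The STAT5 axis of K562 cells was followed through 10 genes: the transcription factors STAT5A, STAT5B and STAT3, the kinase JAK2, and the known STAT5 target genes PIM1, PIM2, CISH, SOCS2, OSM and ID1. All 10 were found by symbol among the 35606 genes of the count table. The genes were chosen by name as parts of one pathway, at a time when the differences between these libraries were already known, and STAT5A had been seen to be lower. Their differences between the groups, and on which side of the threshold each fell in the fit over all genes, are therefore a description: no p-value of that fit is given for them, and nothing is supported with them.

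K562 is an established line from a chronic myelogenous leukaemia. It carries the BCR-ABL fusion kinase and expresses genes of young red cells. All 4 libraries came from K562 cells: 2 from cells expressing the fusion JAZF1-SUZ12, which is found in endometrial stromal sarcoma and joins part of the zinc finger protein JAZF1 to most of the Polycomb subunit SUZ12, and 2 from mock cells. How the fusion was delivered, which promoter drove it, whether the cells were clonal and what the mock cells received are not given in the sources used here. Nothing says that the replicates were separate cultures, so each p-value measures the spread between these samples only, which may be technical.

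STAT5A and STAT5B are latent transcription factors that become active when a tyrosine kinase phosphorylates them and they pair up and enter the nucleus. JAK2 does this below cytokine receptors such as the erythropoietin receptor, whereas BCR-ABL can phosphorylate STAT5 without a cytokine. Active STAT5 binds the palindromic site TTCNNNGAA and raises survival genes, among them PIM kinases, together with its own inhibitors CISH and SOCS2. STAT5 is needed for the growth of BCR-ABL leukaemias and for the survival of red cell precursors.

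The libraries held between 17260936 and 24423028 estimated counts. In the check of the labels, JAZF1 was at 33.3 and 29.9 CPM (the share of a library's counts, scaled to a total of 1000000) in the JAZF1-SUZ12 libraries and at 0.59 and 1.27 CPM in mock, and SUZ12 at 275 and 269 CPM against 136 and 131 CPM. Reads of the fusion and of the endogenous genes are not separated in these values. The source label gives uterus, but the erythroid genes HBG1, HBG2, GATA1, KLF1, TAL1 and EPOR together took 6484 and 6225 CPM in mock libraries. They took 7067 and 7011 CPM in JAZF1-SUZ12 libraries (replicates 1 and 2 in order in both groups). Most of each sum was HBG1 (2184 and 2100 against 2523 and 2489 CPM) and HBG2 (3725 and 3560 against 3971 and 3930 CPM). HBG1 rose (edgeR, adjusted p = 0.00125). HBG2, at 0.096 on the log2 scale, was short of the threshold (edgeR, adjusted p = 0.0838), with an unadjusted p under 0.05. With DESeq2, 2 erythroid markers were called higher. How reads were divided between HBG1 and HBG2 was not examined. GATA1, KLF1, TAL1 and EPOR were not called, at 0.043, 0.016, -0.035 and -0.13 on the log2 scale. The higher sums therefore came mostly from HBG1 and HBG2. The stromal genes LUM, COL3A1, DCN, PDGFRA, THY1 and ESR1 together took between 1.13 and 1.81 CPM. Of 5 megakaryocyte genes, PF4, GP9 and PPBP were at 0 in every library, while ITGA2B was at 39.2 and 35.6 CPM in mock against 37.5 and 39.5 CPM in JAZF1-SUZ12 libraries and GP1BA at 0.929 and 1.41 against 2.84 and 2.09 CPM, neither of them called. Of the lymphoid and myeloid genes LYZ, MPO, MS4A1, CD14 and CD3E, MS4A1 was at 0 in every library and CD14 had at most 2 counts, while LYZ had between 405 and 704. The 5 together took 34.9 and 30.3 CPM in mock against 23.9 and 23.5 in JAZF1-SUZ12 libraries, and LYZ fell (edgeR, adjusted p = 0.000692). The part of these shifts in the results below was not tested, and in bulk RNA fewer cells with a transcript and less of it per cell cannot be told apart.

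The promoters were read for the site that STAT5 binds. The target genes were picked as known STAT5 targets, so a site in one of them is not independent of the choice and is given as a description. RefSeq windows (GRCh38.p14) were present for 8 of the 10 genes, which leaves out SOCS2 and OSM. In the 250 bases before the gene start, CISH held 4 copies of TTCNNNGAA (a sequence that reads the same on both strands), and none of the other 7 genes held one. Among 27305 genes with a window, 8.09% held at least 1 match, 0.443% held at least 2, and 4 genes held 4, which was the highest number found. Besides CISH these were ZNF112, ZNF225 and the uncharacterized locus LOC124907892. CISH encodes an SH2 protein that docks on activated cytokine receptors and blocks their access to STAT5. Its upstream stretch is shown for the 4 matches, and those of PIM1 and ID1 are shown as targets without one. They lie at chr3:50611832-50612024 (minus strand), chr6:37169902-37170151 (plus strand) and chr20:31605039-31605282 (plus strand), each printed 5′ to 3′ with matches in capitals and ending before the annotated gene.
CISH: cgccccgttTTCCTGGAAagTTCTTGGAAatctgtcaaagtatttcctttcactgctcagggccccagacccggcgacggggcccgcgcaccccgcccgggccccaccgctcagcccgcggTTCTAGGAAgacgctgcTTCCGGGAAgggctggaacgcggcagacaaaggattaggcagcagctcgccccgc
PIM1: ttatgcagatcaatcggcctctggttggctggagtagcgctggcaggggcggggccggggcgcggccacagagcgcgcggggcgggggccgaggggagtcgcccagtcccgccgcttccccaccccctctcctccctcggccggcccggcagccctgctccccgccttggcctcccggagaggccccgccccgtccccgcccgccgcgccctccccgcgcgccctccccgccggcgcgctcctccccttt
ID1: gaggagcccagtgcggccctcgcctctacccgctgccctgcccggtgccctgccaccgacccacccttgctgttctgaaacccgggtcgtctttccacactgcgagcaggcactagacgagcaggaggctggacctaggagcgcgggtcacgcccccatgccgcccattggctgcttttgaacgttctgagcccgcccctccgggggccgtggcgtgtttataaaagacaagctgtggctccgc

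The 4 CISH matches fall into 2 close pairs. With the base just before the gene start as -1, TTCCTGGAA begins at -241 and TTCTTGGAA at -230, and TTCTAGGAA begins at -129 and TTCCGGGAA at -112. With 4 bases between the arms in place of 3, the only match in these genes was TTCCTCTGAA, from -229 to -220 before the most upstream of the 3 RefSeq starts of STAT5A. A match of letters is not evidence of binding, and these windows leave out introns and distant enhancers, where STAT5 also binds.

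In all, 9 of the 10 genes had enough counts to enter the fit over all genes (edgeR quasi-likelihood test), and a gene is said to be called where its adjusted p was under 0.05. As a description, 6 of the 9 were on the called side, 3 higher in JAZF1-SUZ12 libraries (STAT3, PIM1 and CISH) and 3 lower (STAT5A, PIM2 and ID1). The share called among all 14750 genes tested was 24.7% (13.3% on the higher side and 11.4% on the lower), and since the genes were picked with this contrast known, the calls are no independent evidence and nothing is read from the share. Groups that did not overlap were common too: 61.0% of all genes tested showed no overlap, so the lack of overlap noted for single genes below sets none of them apart. The genes did not move one way: the transcription factors, the PIM kinases and the other targets each held members of both signs.

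**Figure D1:**
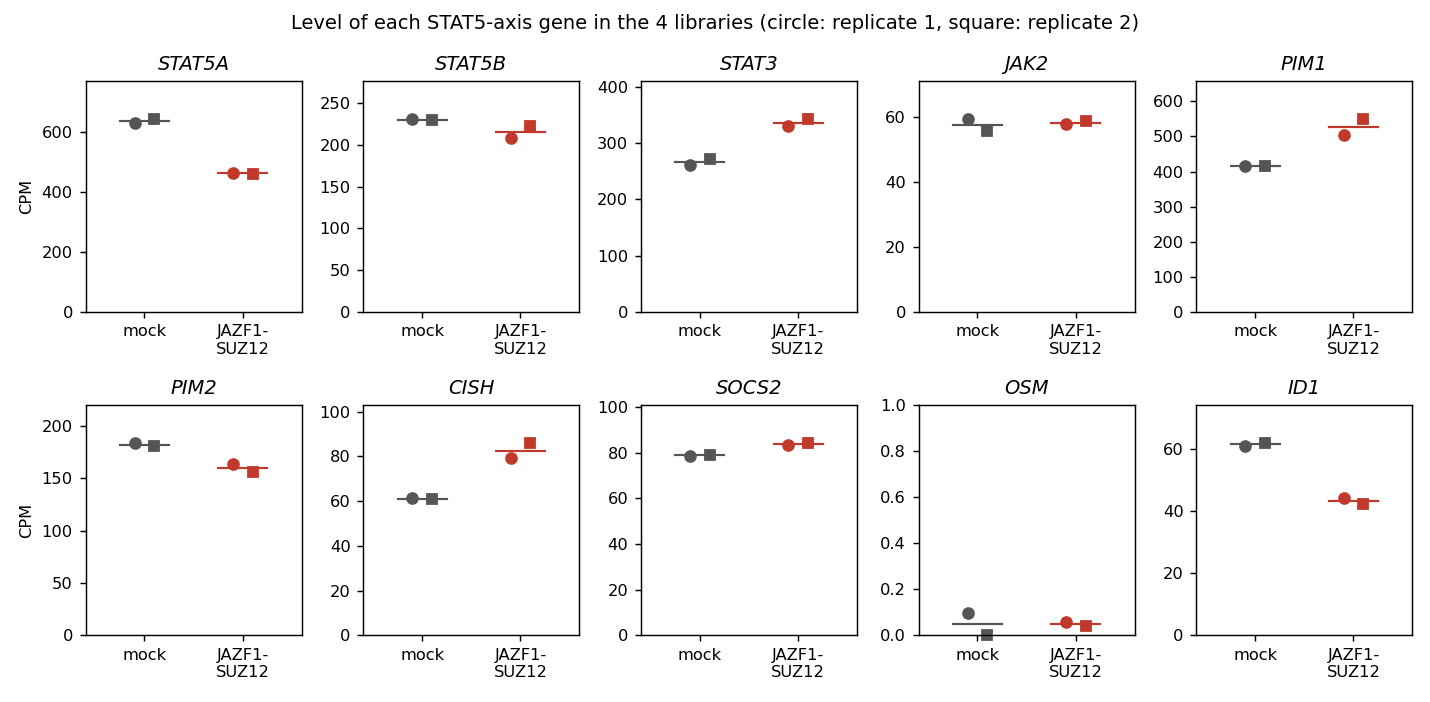
Level of each of the 10 genes in CPM (vertical axis from 0) in mock and JAZF1-SUZ12 libraries; points are single libraries and lines are group means of 2. STAT5A, PIM2 and ID1 were lower and STAT3, PIM1 and CISH higher in both JAZF1-SUZ12 libraries than in both mock libraries, and OSM was close to 0 in all 4.

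Among the transcription factors, STAT5A was the most abundant in every library. STAT5A (ENSG00000126561; GRCh38 chromosome 17, 42287547 to 42311943, plus strand) was at 628 and 641 CPM in mock replicates 1 and 2 and at 464 and 458 CPM in JAZF1-SUZ12 replicates 1 and 2. Both JAZF1-SUZ12 libraries lay below both mock libraries, and the gap between groups was far wider than the gap within them. The log2 fold change was -0.48 (standard error 0.04), a change of -28.4%.

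STAT5B (ENSG00000173757; chromosome 17, 42199168 to 42276707, minus strand) was at 231 and 230 CPM in mock against 208 and 222 CPM in JAZF1-SUZ12 libraries. The groups did not overlap, but the spread between the JAZF1-SUZ12 libraries was nearly as wide as the distance to mock. Its log2 fold change was -0.12 (standard error 0.05), with an approximate 95% interval of -0.21 to -0.027, and it was not called. STAT5B was on the called side in 3 of 11 alternative fits, among them the fit with the replicate number as a block.

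STAT5A and STAT5B arose by duplication and are close in sequence, so estimated counts can divide reads between them. Of the 5832 different 31-base words in the GENCODE 29 transcripts of STAT5A, 11.8% also occurred in STAT5B transcripts, and none occurred in STAT3 transcripts. The sum of the pair does not depend on how reads were divided between its genes. It was 859 and 871 CPM in mock against 671 and 681 CPM in JAZF1-SUZ12 libraries, a log2 fold change of -0.38 (standard error 0.04). The share of STAT5A in the pair was 73.2% and 73.6% in mock and 69.0% and 67.3% in JAZF1-SUZ12 libraries. Both its level and its share were thus lower in every JAZF1-SUZ12 library. Unlike the sum, the share depends on how reads were divided, and it restates the log2 fold changes of the pair.

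STAT3 (ENSG00000168610; chromosome 17, 42313324 to 42388568, minus strand) is the STAT factor best known below the interleukin 6 family of cytokines. It went the other way, from 262 and 271 CPM in mock to 330 and 342 CPM in JAZF1-SUZ12 libraries, with no overlap. Its log2 fold change was 0.31 (standard error 0.04). The authors' deposited table gives STAT3 a larger log2 fold change, 0.51, and STAT5A -0.48. The reason for the difference between the tables was not tested.

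Scaled by the length of the longest GENCODE transcript, the balance of the STAT factors shifted. STAT5A was at 146 and 149 CPM per kilobase in mock, and STAT3 was at 51.9 and 53.7. In JAZF1-SUZ12 libraries STAT5A was at 108 and 107 CPM per kilobase and STAT3 at 65.5 and 67.8. The ratio of STAT5A to STAT3 on this scale was therefore 2.82 and 2.77 in mock and 1.65 and 1.57 in JAZF1-SUZ12 libraries. STAT5A remained the more abundant of the pair in each library.

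JAK2 (ENSG00000096968; chromosome 9, 4984390 to 5128183) was at 59.3 and 55.8 CPM in mock against 57.9 and 58.7 CPM in JAZF1-SUZ12 libraries. The groups overlapped. The log2 fold change was -0.0027, with an approximate 95% interval of -0.13 to 0.12, and its sign changed with the scaling.

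PIM1 and PIM2 are serine/threonine kinases that need no activating phosphorylation by another kinase, and they favour survival and growth. PIM1 (ENSG00000137193; chromosome 6, 37170203 to 37175426) was at 415 and 417 CPM in mock against 504 and 548 CPM in JAZF1-SUZ12 libraries. PIM2 (ENSG00000102096; chromosome X, 48913182 to 48919024) was at 184 and 181 CPM in mock against 163 and 156 CPM in JAZF1-SUZ12 libraries. Neither gene overlapped between groups, and the kinases went in opposite directions, with log2 fold changes of 0.32 for PIM1 (standard error 0.04) and -0.21 for PIM2 (standard error 0.05).

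CISH and SOCS2 belong to the SOCS family, a group of cytokine-induced proteins that dampen signalling from the receptors. CISH (ENSG00000114737; chromosome 3, 50606490 to 50611831) was at 61.4 and 61.0 CPM in mock against 79.2 and 85.9 CPM in JAZF1-SUZ12 libraries, with no overlap. Its log2 fold change of 0.41 (standard error 0.06) was the largest increase among the 9 genes. CISH, whose promoter holds the 4 matches, was higher in the libraries in which STAT5A was lower. Phosphorylation and binding of STAT5 were not measured in these libraries, and a link between these differences was not tested. SOCS2 (ENSG00000120833; chromosome 12, 93569814 to 93583487) was at 78.6 and 79.1 CPM in mock against 83.3 and 84.2 CPM in JAZF1-SUZ12 libraries. Although the groups did not overlap, SOCS2 was not called: its log2 fold change was 0.065 with an approximate 95% interval of -0.045 to 0.18.

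ID1 (ENSG00000125968; chromosome 20, 31605283 to 31606515) encodes a dominant-negative helix-loop-helix protein that holds back differentiation. It was at 61.0 and 61.9 CPM in mock against 44.1 and 42.3 CPM in JAZF1-SUZ12 libraries, with no overlap. The log2 fold change of -0.53 (standard error 0.07) was the largest decrease among the 9 genes.

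OSM (ENSG00000099985; chromosome 22, 30262829 to 30266840) encodes oncostatin M, a cytokine of the interleukin 6 family and a direct STAT5 target in blood cells. It had 2 and 0 counts in mock and 1 and 1 in JAZF1-SUZ12 libraries, at or under the floor of 3 counts in all of them. No fold is given for it, and a difference in OSM was not detectable at this depth.

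**Figure D2:**
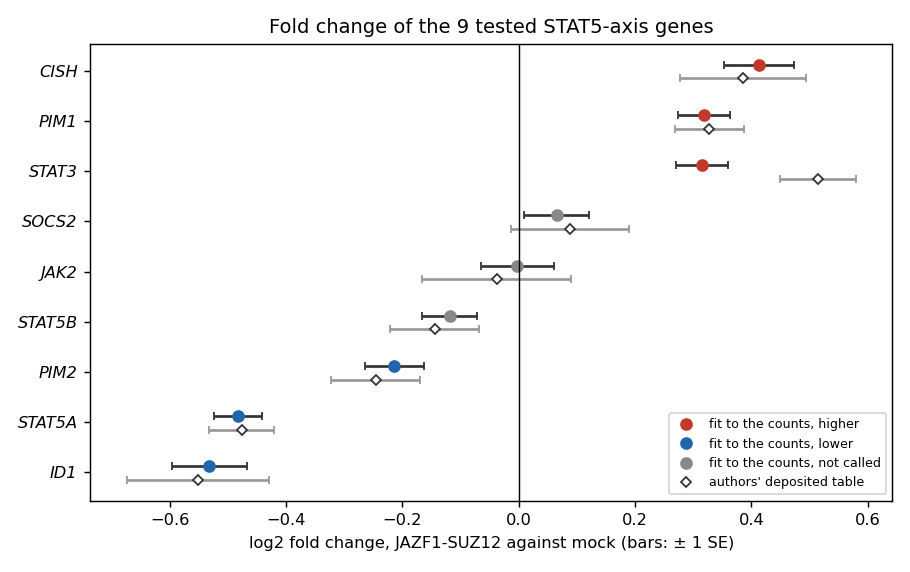
Log2 ratio of JAZF1-SUZ12 to mock for the 9 genes in the fit (horizontal axis), with bars of 1 standard error; filled points are the fit to the counts and open diamonds the authors' deposited table. CISH, PIM1 and STAT3 lie to the right of 0 and PIM2, STAT5A and ID1 to the left in both. The fit and the authors' table come from the same libraries and differ most for STAT3 (0.31 and 0.51).

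Per kilobase of longest transcript, the order of the genes in mock was PIM1, STAT5A, PIM2, STAT3, ID1, STAT5B, SOCS2, CISH, JAK2 and OSM. The first 3 places and the last 4 were held by the same genes in the JAZF1-SUZ12 libraries. STAT5B and ID1 changed places: ID1 was at 49.9 and STAT5B at 45.1 CPM per kilobase in mock, against 35.1 and 42.1. In mock, PIM1 was at 157 CPM per kilobase in both libraries, just above STAT5A, whereas in JAZF1-SUZ12 libraries PIM1 was at 190 and 207, well above STAT5A. Neighbours in the order did not overlap between replicates in either group. A gene expressed mainly as a shorter transcript would stand higher than shown.

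The authors' deposited table gave the same direction for all 6 called genes. It is a comparison of the same libraries, so the shared direction is no independent support. Its log2 fold changes were 0.33 for PIM1, 0.39 for CISH, -0.25 for PIM2 and -0.55 for ID1. For STAT5B, SOCS2 and JAK2 the authors' deposited table gave -0.14, 0.089 and -0.038.

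STAT5B, STAT5A and STAT3 are neighbours on chromosome 17, in a block of 189 kb from 42199168 to 42388568, and their position was not used to choose them. STAT5A starts 10.8 kb from the start of STAT5B, on the opposite strand, and its end lies 1.38 kb from the end of STAT3. Within this block the log2 fold changes ran from -0.12 for STAT5B through -0.48 for STAT5A to 0.31 for STAT3, so STAT5A and STAT3, which lie next to each other, had opposite signs. Around it, 25 further genes of the table lay within 250 kb, of which 21 were tested, 6 called lower and 2 higher, with a median (log2 scale) of -0.11 against 0.0032 over all genes tested. Of all genes tested, 11.4% were called lower and 13.3% higher, and whether the genes near the block differ from the rest was not tested.

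Within 100 kb of the block, 7 neighbours were tested and 4 fell, beside 11.4% of all genes tested. CAVIN1, a caveolae coat protein gene 13.9 kb beyond STAT3, fell to 358 ± 6.32 CPM from 472 ± 4.06 CPM in mock (mean ± SD, n = 2), or -0.42 on the log2 scale (edgeR, adjusted p = 3.40e-06). ATP6V0A1, a proton pump subunit gene, fell by 0.30 on the log2 scale (edgeR, adjusted p = 0.000477). On the STAT5B side, the acetyltransferase gene KAT2A fell by 0.28 and the endosomal GTPase gene RAB5C by 0.20 on the log2 scale (edgeR, adjusted p = 0.00783 and 0.0148). KAT2A did not pass without JAZF1-SUZ12 replicate 1 or without mock replicate 2 (adjusted p = 0.0590 and 0.0506), nor RAB5C without JAZF1-SUZ12 replicate 2 or without mock replicate 2 (0.0932 and 0.136). Over the 11 alternatives the adjusted p ranged up to those highest values of 0.0590 for KAT2A and 0.136 for RAB5C. GHDC, KCNH4 and DHX58 were not called, with log2 fold changes of -0.0035, -0.58 and 0.50 (standard errors 0.08, 0.29 and 0.36). KCNH4 had 32 to 76 counts a library and DHX58 had 28 to 44, so their fold changes are imprecise. Without mock replicate 2, 3 genes within 250 kb were called lower and 3 higher, and without JAZF1-SUZ12 replicate 2 or mock replicate 1, 5 genes were called in all.

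**Figure D3:**
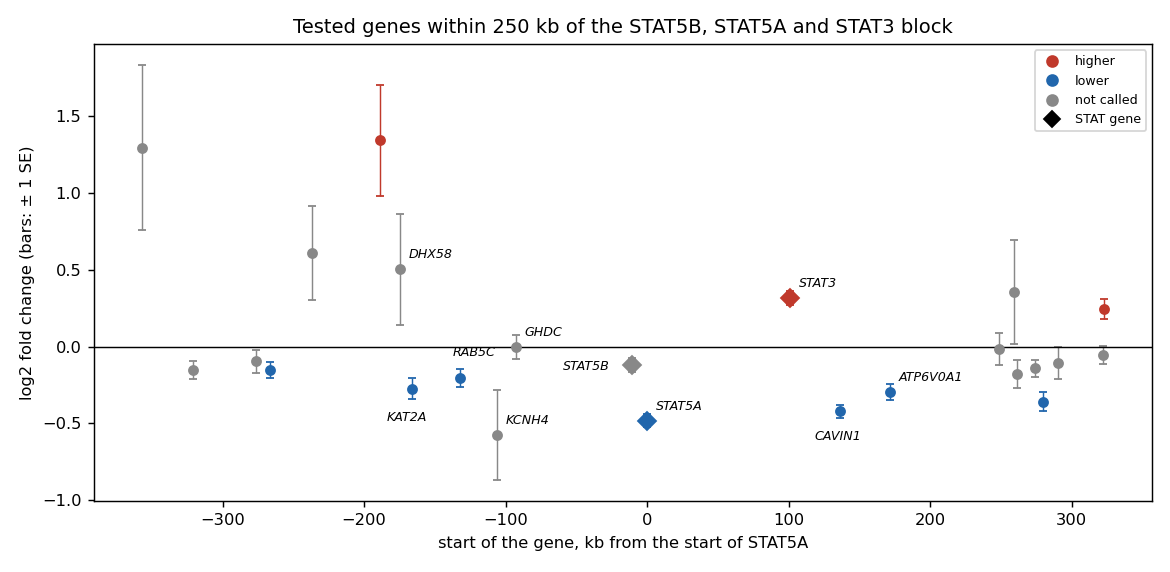
Log2 fold change (vertical axis, bars of 1 standard error) of tested genes within 250 kb of the block, by the distance of each gene's start from that of STAT5A in kb (horizontal axis); diamonds are the STAT genes and colours give the call. CAVIN1 at -0.42 and ATP6V0A1 at -0.30 lie on the far side of STAT3, which is at 0.31, so lower genes stand on both sides of a higher one.

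The genes whose pattern over the 4 libraries was nearest to that of STAT5A were RPIA, DIAPH1 and PDLIM5, by the Euclidean distance of mean-centred log2 CPM (0.030, 0.038 and 0.041). DIAPH1, an actin-nucleating formin, was also close in level, at 626 CPM in mock against 464 CPM in JAZF1-SUZ12 libraries. With 2 libraries a group, this distance largely picks genes with a fold change like that of STAT5A. RPIA, DIAPH1 and PDLIM5 were at -0.47, -0.45 and -0.47 on the log2 scale, and shared regulation was not tested.

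Around these genes, 86 others of the pathway were examined in 7 lists by role, of which 73 were tested (IL2RA, not tested, stands in 2 lists). In all, 12 were called higher and 9 lower, which is 28.8% against 24.7% over all genes tested, and the median was -0.017 against 0.0032 on the log2 scale. With DESeq2, 9 were called higher and 4 lower. The lists were not tested as sets. For the counts called in each list below, the shares over all genes tested were 13.3% higher and 11.4% lower.

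Upstream stand BCR, ABL1 and the adaptors of the fusion kinase. Of 12 genes, 1 was called higher and 1 lower, and the list median was -0.028. CRKL, the SH2-SH3 adaptor that is a main substrate of BCR-ABL, rose to 631 ± 3.86 CPM from 563 ± 6.43 CPM in mock (mean ± SD, n = 2), or 0.14 on the log2 scale (edgeR, adjusted p = 0.0157), but it did not pass without mock replicate 1 (adjusted p = 0.0917, the highest of 11 alternatives). LYN, a SRC-family kinase, fell by 0.16 on the log2 scale (edgeR, adjusted p = 0.0266) and did not pass with DESeq2 or without any of the 4 libraries (adjusted p up to 0.146 over 11 alternatives). ABL1 was at 340 CPM in both mock libraries against 346 and 331 CPM in JAZF1-SUZ12 libraries, and the phosphatase gene PTPN11 at 229 and 234 CPM against 221 CPM in both. Neither was called. Gene-level counts do not separate BCR-ABL from normal BCR and ABL1.

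None of the other JAK kinases and STAT factors was called by edgeR at an adjusted p of 0.05. Of 7 genes, 6 were tested, and the list median was -0.092 on the log2 scale. At an unadjusted p under 0.05 edgeR gave 1 of them, STAT6, and DESeq2 called 0. JAK1 and TYK2, the most abundant of them, had log2 fold changes of -0.11 and -0.074. TYK2 passed without JAZF1-SUZ12 replicate 2 (edgeR, adjusted p = 0.0357, the lowest of 11 alternatives, the highest being 0.843).

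The largest log2 changes among the 21 called genes, those of OSMR and KIT, were in cytokine receptors. Of 16 genes, 9 were tested, 4 rose and none fell (0 lower at an unadjusted p under 0.05, and 0 with DESeq2). The list median of 0.39 was the value of GHR (standard error 0.69), which had 4 to 12 counts a library. The other uncalled receptors were CSF3R at 0.39 (standard error 0.52), LEPR at 0.023, IL2RG at 0.0038 and EPOR at -0.13. GHR, CSF3R and IL2RG are named after their values were seen, and the median is not read as a shift of the whole list. OSMR, the receptor subunit specific to oncostatin M, had 17 and 18 counts in mock and 75 and 115 in JAZF1-SUZ12 libraries. It rose to 4.53 ± 0.257 CPM from 0.838 ± 0.0097 CPM in mock (mean ± SD, n = 2), 5.30-fold, or 2.40 on the log2 scale (standard error 0.31, edgeR adjusted p = 3.84e-05). LIFR, which can pair with the same partner, rose to 33.7 ± 1.78 CPM from 19.1 ± 0.635 CPM in mock (mean ± SD, n = 2), or 0.80 on the log2 scale (edgeR, adjusted p = 5.27e-06). IL6ST, the shared signalling subunit gp130, rose to 52.9 ± 2.01 CPM from 41.4 ± 2.18 CPM in mock (mean ± SD, n = 2), or 0.33 on the log2 scale (edgeR, adjusted p = 0.00199). All 3 subunits through which oncostatin M can signal were thus higher, while OSM itself was at the floor in these cells. The 3 genes all lie on chromosome 5, as do GHR, which was not called, and other receptors of the list with too few counts to be tested. A part of position in these differences was not tested.

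KIT, the stem cell factor receptor of blood progenitors, rose to 6.30 ± 0.682 CPM from 2.50 ± 0.546 CPM in mock (mean ± SD, n = 2), or 1.31 on the log2 scale (edgeR, adjusted p = 0.000825). EPOR, the erythropoietin receptor that signals through JAK2, was at 34.8 ± 0.35 and 32.2 ± 2.16 CPM and was not called, with a log2 fold change of -0.13. LEPR, the leptin receptor, was at 0.023. Of the others, 3 were not called and 7 had too few counts to be tested.

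Beside 13.3% higher and 11.4% lower over all genes tested, 4 of 14 inhibitors fell and none rose, with a list median of -0.17. At an unadjusted p under 0.05 edgeR gave 6 of them, of which SOCS3 was the only one higher, and DESeq2 called 1 lower and 0 higher. SH2B3, the adaptor LNK that restrains JAK2 in blood cells, fell to 128 ± 2.34 CPM from 155 ± 4.36 CPM in mock (mean ± SD, n = 2), or -0.29 on the log2 scale (edgeR, adjusted p = 0.000517). The others that fell were PIAS4, SOCS4 and PTPN1, by 0.28, 0.29 and 0.17 on the log2 scale (edgeR, adjusted p = 0.0127, 0.0134 and 0.0320). With DESeq2 these 3 did not pass (adjusted p = 0.0790, 0.0908 and 0.0688), and over the 11 alternatives their highest values were 0.115, 0.0908 and 0.257. SOCS3, the inhibitor typical of STAT3 signalling, was at 47.2 ± 1.46 CPM in mock against 54.1 ± 3.41 CPM in JAZF1-SUZ12 libraries (mean ± SD, n = 2), just short of the threshold (edgeR, adjusted p = 0.0618), and it passed in 4 of 11 alternatives. PIAS1 was at 0.028 on the log2 scale and was not called.

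Other described targets of STAT5 also went both ways. Of 17 genes, 14 were tested, 4 rose and 2 fell, with a median (log2 scale) of -0.015. CDKN1A, which encodes the cell cycle inhibitor p21, rose to 61.5 ± 3.86 CPM from 33.3 ± 2.39 CPM in mock (mean ± SD, n = 2), or 0.86 on the log2 scale (edgeR, adjusted p = 5.85e-07). The repressor gene BCL6 rose by 0.82 and the transferrin receptor gene TFRC by 0.16 on the log2 scale (edgeR, adjusted p = 0.00447 and 0.00718). BCL6 did not pass without JAZF1-SUZ12 replicate 2 (log2 fold change 0.52, adjusted p = 0.111), nor TFRC without mock replicate 2 (adjusted p = 0.0567), in each case the highest of 11 alternatives. MCL1, a survival gene, fell to 391 ± 4.93 CPM from 452 ± 1.42 CPM in mock (mean ± SD, n = 2), or -0.23 on the log2 scale (edgeR, adjusted p = 0.000922). BCL2, another survival gene, rose by 0.67 and the cyclin gene CCND3 fell by 0.15 on the log2 scale (edgeR, adjusted p = 0.0312 and 0.0263), both named after their values were seen. Neither passed without JAZF1-SUZ12 replicate 2, mock replicate 1 or mock replicate 2 (highest adjusted p = 0.219 and 0.167 over 11 alternatives), nor BCL2 with DESeq2 (0.133). BCL2L1, the survival target most often tied to STAT5 in red cell precursors, and MYC were not called, with log2 fold changes of -0.088 and -0.096.

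Of 6 genes of the ID family and of SMAD feedback, 5 were tested, 2 rose and none fell, with a list median of 0.17. At an unadjusted p under 0.05 ID3 was also lower, and DESeq2 called 0 in either direction. SMAD7 and SMAD6, inhibitors that bone morphogenetic proteins induce along with ID1, rose by 0.75 and 0.37 on the log2 scale (edgeR, adjusted p = 0.0171 and 0.0405), in the direction opposite to ID1. Both failed to pass with DESeq2 (adjusted p = 0.0796 and 0.149), and over 11 alternatives the highest values were 0.0910 and 0.300. ID2 was at 0.17 and BAMBI at 0.018, and ID4 had 0 counts in every library. ID3, named after its value was seen, was at 13.4 ± 0.32 CPM in mock against 10.6 ± 0.13 CPM in JAZF1-SUZ12 libraries (mean ± SD, n = 2), on the same side as ID1 and just short of the threshold (edgeR, adjusted p = 0.0505).

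For the ERK branch below BCR-ABL, 15 target and feedback genes were examined, and ERK activity itself was not measured. Of these genes 13 were tested, 1 rose and 2 fell, with a median (log2 scale) of -0.071. PHLDA1 rose by 0.76 (edgeR, adjusted p = 0.00571), and the AP-1 gene FOSL1 and the RAS inhibitor gene SPRED2 fell by 0.45 and 0.19 on the log2 scale (edgeR, adjusted p = 0.00614 and 0.0348). FOSL1 did not pass without mock replicate 1 (adjusted p = 0.0502), and SPRED2 did not pass in 5 of 11 alternatives (highest adjusted p = 0.256). EGR1 and ETV4, the most abundant members that were not called, were at 0.17 and -0.12, and EGR1 passed in 7 of 11 alternatives. The sign or call of ETV4 changed in 2 of the 11, with log2 fold changes from -0.22 to 0.0082. DUSP6, a standard readout of ERK output, had at most 2 counts in a library, and it is named after its counts were seen.

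**Figure D4:**
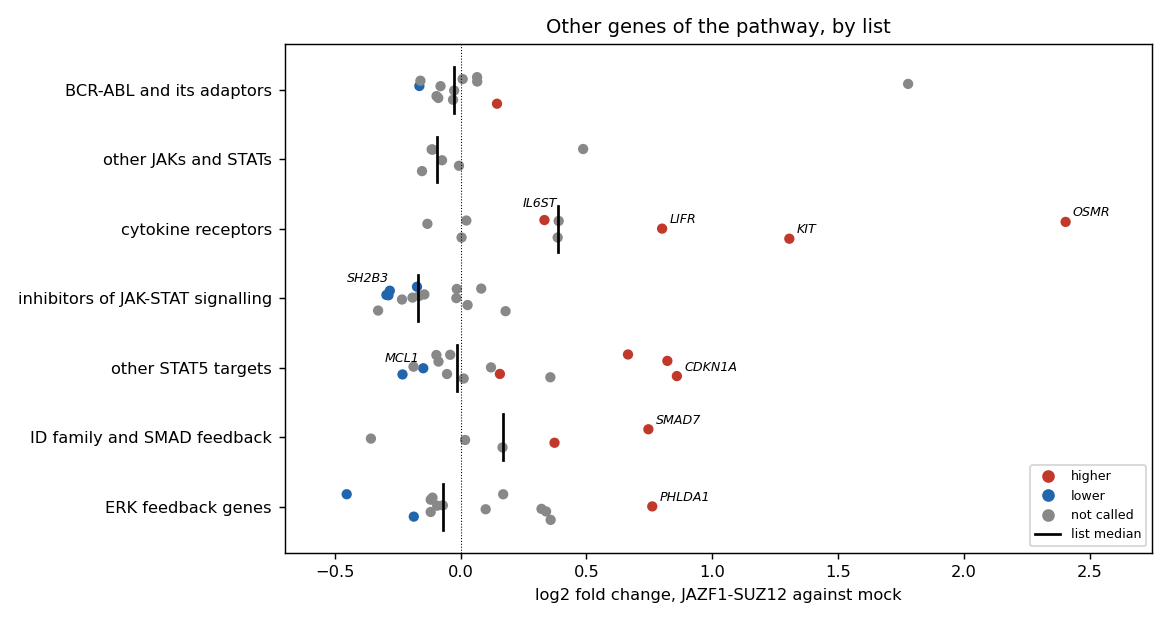
Log2 fold change (horizontal axis) of the tested genes in each of 7 lists, 1 point per gene coloured by call, with the list median as a bar. The largest increase is that of the cytokine receptor OSMR at 2.40, and the listed inhibitors lie mostly left of 0 around a median of -0.17. The inhibitors CISH, which was higher, and SOCS2 are not in the lists.

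Genes with the STAT site were also looked at apart from the pathway. Of the 11088 tested genes with a promoter window, 33 held at least 2 matches of TTCNNNGAA, and 4 of these were called higher and 2 lower, with a median (log2 scale) of -0.013. Of 801 genes with 1 match, 72 were called higher and 99 lower, which is 8.99% and 12.4%. Of 10254 genes without a match, 13.1% were called higher and 12.6% lower. The 6 called genes with at least 2 matches were CISH, KIF1A, CLSTN1 and ACSBG1, which were higher, and EED and BST2, which were lower, all but CISH named after their values were seen.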

How the data were processed

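Poly(A)-selected, directional libraries were sequenced from 4 K562 samples. The authors deposited estimated counts per gene, not normalized, and their own comparison, whose mean signal (normalized counts), log2 fold change with its standard error, score (test statistic) and p-value columns have DESeq2's names, per the file headers. The submitters' processing notes list fastp 0.20.1, kallisto 0.46.2, DESeq2 1.30.1 and build hg38; the annotation is not given in the sources used here. Whether strand was used in counting is not given.

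Between 29.9% and 33.6% of a library's values were not whole (tolerance 1e-06), so the estimated counts were rounded. CPM is a rounded count over the library total times 1000000. Of 35606 gene IDs, 35410 matched GENCODE 29 (GRCh38), from which positions and lengths come. Replicates differed beyond sampling noise (chi-square per degree of freedom 3.86 and 3.61).

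Genes were kept with filterByExpr, scaled with TMM and tested with edgeR 4.0.16 (R 4.3.3) by the quasi-likelihood F test with group as the only term, two-sided, with Benjamini-Hochberg adjustment over all genes tested and 0.05 as the threshold. The standard error is the fold change over the square root of F. The script was tested on simulated data. A floor of 3 counts and all intervals cover counting or fit error only. Distances to STAT5A used log2(CPM + 0.5).

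The genes and lists were chosen with earlier results of these data known. Named are the 10 genes, up to 4 called genes of smallest p and up to 2 abundant uncalled genes per list, tested genes within 100 kb of the STAT block, and the 3 genes nearest to STAT5A. The alternatives were DESeq2 size factors, total counts, DESeq2 1.42.0, limma-voom 3.58.1, no filter, a mean of at least 50 counts, a replicate block, a threshold of 0.01 and leaving out each library. Some members of the marker and receptor lists are not reported here.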

Additional observations from a re-analysis of the deposited data

How the results depend on the processing

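The 6 called genes of the axis kept their call and direction in all 11 alternative fits, with 6 or 7 of the genes called in each, the seventh being STAT5B; its log2 fold change was from -0.16 to -0.085. The 6 genes were picked with the contrast known and the fits share their libraries, so that they stayed called is a description only. The summed STAT5 pair ranged from -0.39 to -0.35. JAK2, which was not called, changed sign with total counts (0.020), with a mean of at least 50 counts (0.022) and without mock replicate 1. Leaving out 1 library assumes that the lone sample of its group varies like the others.

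With DESeq2, 2407 genes were called in place of 3643, with 1051 lower in place of 1688, and 13 other pathway genes in place of 21, with 4 lower in place of 9; the cause was not tested. At the threshold of 0.01, which lowers counts by construction, 2045 genes were called, 1255 higher and 790 lower. Near the STAT block, 1 gene in place of 2 was called higher both with DESeq2 and with a mean of at least 50 counts. GHDC changed sign with total counts (0.019) and with a mean of at least 50 counts (0.020).

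When each library was left out in turn, from 2455 to 3734 genes were called and from 953 to 1863 were lower. Other pathway genes called numbered from 13 to 21, and those lower from 4 to 8. Near the STAT block from 5 to 7 genes were called, from 0 to 3 higher and from 3 to 6 lower. In these fits the uncalled genes JAK2 (-0.039 to 0.045), ABL1 (-0.076 to 0.016), BAMBI (-0.061 to 0.11), ETV4 (-0.22 to 0.0082), GHDC (-0.080 to 0.081), ID2 (-0.083 to 0.36), LEPR (-0.017 to 0.067), PIAS1 (-0.019 to 0.087) and TYK2 (-0.20 to 0.030) took both signs.

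In the fit with a replicate block, 4061 genes were called and STAT5B was on the called side, with a log2 fold change of -0.12, as did SOCS3 and EGR1. The deviations of same-numbered libraries correlated at 0.035 over 11826 genes, and with 2 pairs the numbers are not shown to pair the samples, so the block is only a check. Counts limit OSM and the receptors at under 20 counts a library.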
